A study of Mus musculus with 32 samples.

Results

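Resting bone marrow-derived macrophages (BMDMs) of Nur77-KO and wild-type mice were compared before any LPS was added, in 4 RNA-seq libraries each of BMDM-Nur77-KO and BMDM-WT at 0 h, 8 of the 32 libraries of the series. The other 24 libraries, 4 of each genotype after 1, 5 and 18 h of 100 ng/ml LPS, shared the fit and are used below only to follow the genes found at 0 h. All mice are labelled as male C57Bl6/J, and the background of the floxed line is not given. Their marrow was cultured for a week with L929-conditioned medium, a source of the macrophage growth factor CSF1. The labels give the knockout genotype as cre. The methods describe a loxP-flanked Nr4a1 locus deleted by a Cre transgene under the human cytomegalovirus promoter, later bred away, with wild-type littermates as controls, so the deletion was present in the whole mouse and not in macrophages alone. The cells were plated in 4 replicates, and the number of mice behind them is not given in the sources used here. The p-values therefore measure the spread between these libraries, which may be technical. Each gene is represented by its most abundant transcript, and levels are given as TMM-scaled CPM, the counts of a gene relative to the depth of its library.

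Nur77, encoded by Nr4a1, is an orphan nuclear receptor of the NR4A family that is induced within the first hour by many stimuli and binds DNA at the NBRE motif. In macrophages it is known as a brake on inflammatory gene expression, and in marrow it is needed for patrolling Ly6C-low monocytes. Unstimulated BMDMs still have a low tonic activity of interferon and growth factor signalling, which sets the resting level of many immune genes.

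Nr4a1 itself was measured at 4.92, 4.62, 4.45 and 7.01 CPM in BMDM-Nur77-KO and 19.4, 15.5, 25.7 and 18.2 CPM in BMDM-WT. The groups did not overlap, and the level was lower by 1.90 ± 0.19 on the log2 scale (SE, n = 4 per group, edgeR adjusted p = 1.6e-08). The table sums the exons of a transcript, so it does not show from which part of the gene the remaining tags came. The related receptors Nr4a2 and Nr4a3 had at most 1.67 and 0.993 CPM in any library and were not called (log2 fold changes of -0.11 and -0.67). Ddx3y, a gene of the Y chromosome, was between 66.4 and 93.3 CPM in the 8 libraries, as the male label requires. Macrophage markers were high in both genotypes, with Lyz2 at 8727 and 9929.9 CPM, Csf1r at 1464 and 1853 CPM and Adgre1, the F4/80 antigen, at 1019 and 1280.3 CPM on average in BMDM-Nur77-KO and BMDM-WT, and of 16 such genes only the Fc receptor gene Fcgr1 was called. Many markers of other cell types were near 0, but not those of every lineage. Vwf, listed for megakaryocytes, was between 69.3 and 82.7 CPM in the 8 libraries. The summed level of the dendritic cell markers was 46.3 to 60.8 CPM in BMDM-Nur77-KO and 61.6 to 69.8 CPM in BMDM-WT. Most of it came from Bst2, which is also listed as an interferon-stimulated gene. Bst2 was at 37.9 to 50.5 CPM in BMDM-Nur77-KO and 55.65 to 64.1 CPM in BMDM-WT. Of the 10 dendritic cell markers 6, Flt3, Zbtb46 and Clec9a among them, stayed under 1 CPM in all 8 libraries. None of 10 fibroblast and stromal markers passed the filter on low values, with a summed level of 1.39 to 2.23 CPM in BMDM-Nur77-KO and 0.572 to 1.09 CPM in BMDM-WT. The defining neutrophil genes Ly6g and Elane had at most 2 counts in any library, while 6 of 12 neutrophil markers passed the filter. Of the B cell markers 1 passed it, Cd79b, a chain of the B cell receptor, which was at 1.09, 2.03, 0.844 and 1.27 CPM in BMDM-Nur77-KO and 2.14, 2.60, 3.94 and 1.89 CPM in BMDM-WT (-0.97 ± 0.31, edgeR adjusted p = 0.04). Its call was lost without any one of 5 libraries (adjusted p = 0.178 without BMDM-WT replicate 3). The summed level of the B cell markers was 1.53 to 3.16 CPM in BMDM-Nur77-KO, overlapping the 2.98 to 4.92 CPM of BMDM-WT, and the part of such cells in the results was not tested.

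The BMDM-Nur77-KO libraries held 9271205 to 12816358 counts, and those of BMDM-WT 10522140 to 15214524. The first principal component held 51.7% of the variance and separated the genotypes, and BMDM-Nur77-KO replicate 4 and BMDM-WT replicate 2 stood apart from the other libraries of their groups, in opposite directions, along the second one, which held 13.9%. Of 11189 genes tested, 265 were called higher in the knockout and 266 lower, where a call needs both an adjusted p under 0.05 and a log2 difference past 0.58. These are 2.37% and 2.38% of the genes tested, or 4.75% in either direction. Without the limit on the fold change the counts were 709 and 710, or 6.34% and 6.35%. These shares stand beside the counts of every gene list below. Most differences were small, since 88 genes in each direction passed a log2 fold change of 1. Without BMDM-Nur77-KO replicate 4, the counts were 317 and 355, and without BMDM-WT replicate 2 they were 302 and 273. The calls near the limit on the fold change depended on the libraries and on base composition. Of the 100 called genes named in the text, 5 to 15 were no longer past both limits when 1 library was left out, 15 each for BMDM-Nur77-KO replicate 3 and BMDM-WT replicate 3, and 23 when counts were corrected for GC content.

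**Figure D1:**
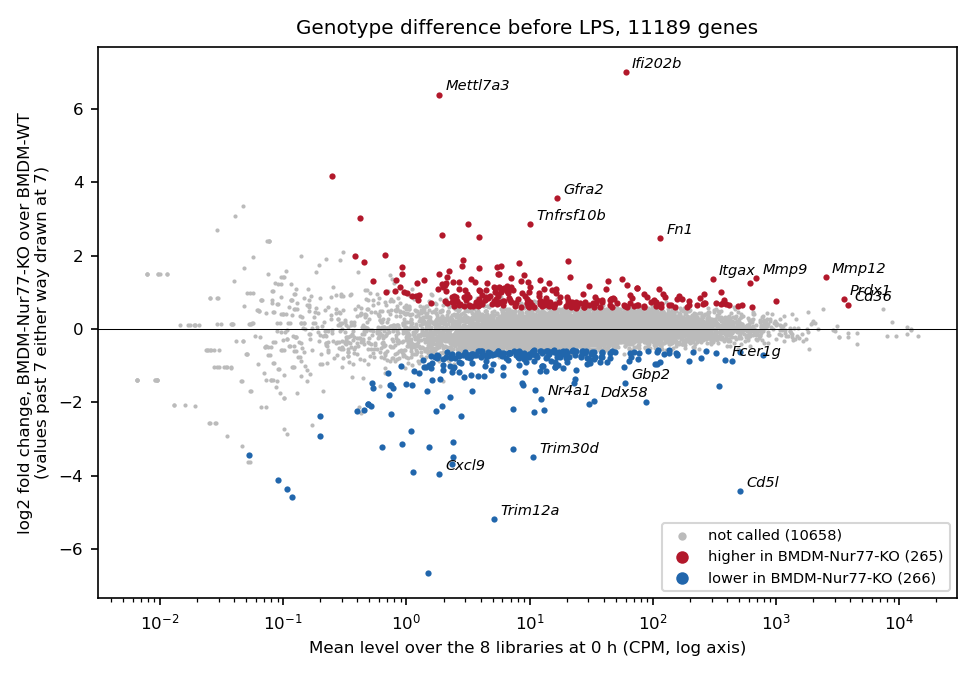
Each point is 1 of the 11189 genes tested, by its mean level over the 8 libraries at 0 h (CPM, log axis) and its log2 fold change between BMDM-Nur77-KO and BMDM-WT. The 265 genes called higher (red) and the 266 called lower (blue) were about equal in number, and Fn1, Mmp12, Cd36 and Prdx1 stood out among the higher genes and Cd5l among the lower genes with a high level.

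Of the gene lists compared, the interferon-stimulated genes held the most lower genes. These are genes that cells switch on after interferon binds its receptors and keep at a low level at rest. Of 30 such genes tested, 12 were lower (2.38% of all genes tested were) and none was higher. The median log2 fold change of the list was -0.58, beside -0.03 for all genes tested, and 20 of the 30 had an adjusted p under 0.05 in this direction. Without BMDM-Nur77-KO replicate 4 the count was 19. Single members lost their call in other runs, as Isg15 did without BMDM-Nur77-KO replicate 1 or 3. Ddx58, the gene of the cytosolic RNA sensor RIG-I, was measured at 12.2, 13.3, 14.1 and 14.7 CPM in BMDM-Nur77-KO and 53.1, 51.0, 63.5 and 44.8 CPM in BMDM-WT. It was far below the wild-type range in every knockout library, a log2 fold change of -1.97 ± 0.11 (SE, edgeR adjusted p = 1.25e-14). Gbp2, a guanylate-binding GTPase of cell-autonomous defence, was at 31.3, 32.0, 31.9 and 31.2 CPM in BMDM-Nur77-KO and 97.7, 69.5, 99.2 and 86.2 CPM in BMDM-WT. Its 4 knockout libraries were close together and all under the wild-type range (log2 fold change -1.48 ± 0.27, edgeR adjusted p = 0.000247). Cxcl10, a chemokine that draws CXCR3-positive T cells, was low in both genotypes, at 1.82, 1.96, 2.15 and 3.03 CPM in BMDM-Nur77-KO and 4.89, 4.99, 5.60 and 6.25 CPM in BMDM-WT, and its groups did not overlap (log2 fold change -1.27 ± 0.12, edgeR adjusted p = 1.34e-08).

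Irf7, the transcription factor that amplifies type I interferon, was at 8.75, 10.6, 12.3 and 13.1 CPM in BMDM-Nur77-KO and 18.8, 19.2, 27.0 and 19.5 CPM in BMDM-WT (-0.91 ± 0.14 on the log2 scale, edgeR adjusted p = 1.94e-05). Zbp1, a sensor of Z-form nucleic acids, was at 6.56, 7.09, 5.53 and 6.85 CPM in BMDM-Nur77-KO and 11.5, 11.5, 14.5 and 11.0 CPM in BMDM-WT, and Oas3, which makes the 2′-5′ oligoadenylates that activate RNase L, was at 26.4, 21.8, 26.1 and 26.0 CPM in BMDM-Nur77-KO and 41.1, 42.5, 52.9 and 33.3 CPM in BMDM-WT. For all 3 genes every knockout library was below every wild-type library. The log2 fold change was -0.90 ± 0.13 for Zbp1 (edgeR adjusted p = 9.73e-06) and -0.76 ± 0.11 for Oas3 (edgeR adjusted p = 1.48e-05). Other members moved less. Ifit2, which binds viral RNA, was at 54.2 ± 4.85 CPM in BMDM-Nur77-KO and 80.8 ± 20.0 CPM in BMDM-WT (SD) and just missed the limit on the fold change (-0.58, edgeR adjusted p = 0.0208, and 0.134 without BMDM-WT replicate 3), and Stat2, a transcription factor of interferon signalling, was -0.44 ± 0.08 (edgeR adjusted p = 0.000281). Bst2 and Oasl2 did not pass the test, with log2 fold changes of -0.50 and -0.37.

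A run of 3 neighbouring genes of the p47 GTPase family on chromosome 11, which act on the vacuoles of intracellular pathogens, was also lower. Gm12250, Igtp and Irgm2 lie between 58183843 and 58222783 on chromosome 11 (mm10) with no other tested gene between them. Their means were 9.77, 13.0 and 24.0 CPM in BMDM-Nur77-KO and 15.5, 22.0 and 38.5 CPM in BMDM-WT, with log2 fold changes of -0.67, -0.75 and -0.68. Cxcl9, another CXCR3 ligand, was close to 0 in the knockout, at 0.273, 0.380, 0.00 and 0.159 CPM in BMDM-Nur77-KO and 3.82, 2.29, 3.94 and 3.85 CPM in BMDM-WT (edgeR adjusted p = 0.00399). In the MHC class I list 2 of 17 genes were lower, where 2.38% of all genes tested were. They were Tap1, a subunit of the peptide transporter (-0.62), and Psmb9, a subunit of the immunoproteasome (-0.62). The heavy chain genes H2-K1 and H2-D1 were at -0.21 and -0.15 and did not pass the test. Without BMDM-WT replicate 3 Tap1 and Psmb9 (-0.57 and -0.55), like Gm12250 and Irgm2 (-0.53 and -0.58), were not past the limit on the fold change. In the class II list H2-Ab1 was lower (-0.60, edgeR adjusted p = 0.0158, and 0.0938 without BMDM-WT replicate 3) and Ifi30, a thiol reductase of the lysosome, higher (0.64, edgeR adjusted p = 5.63e-07), with 11 genes tested.

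The promoters of the called genes were searched for the interferon-stimulated response element (ISRE), a DNA motif of genes that respond to type I interferon. RefSeq gives a promoter window from 250 bases before to 50 bases after the start site (GRCm38) for 8868 of the 11189 genes, and the ISRE was spelled as GAAANNGAAA on both strands, a motif chosen after the lower interferon genes had been seen. It was present in 3.42% of all these windows (Wilson 95% interval 3.06% to 3.82%), in 6 of 195 windows of higher genes (3.08%, 1.42% to 6.55%) and in 29 of 209 windows of lower genes (13.9%, 9.84% to 19.2%). The intervals cover counting error only, and a match is a description of letters, not a bound site. Of the 22 interferon-stimulated genes with a window, 12 held the motif, and Irf7 was among those that did not. The 250 bases before the start site of 4 lower genes with a match are given 5′ to 3′ on the strand of the gene, with the ISRE match in capitals, to show where it lies. Isg15, a ubiquitin-like modifier with 3 overlapping matches, was added after its values had been seen, and the others are described above.
Isg15, chr4:156200819-156201068, minus strand: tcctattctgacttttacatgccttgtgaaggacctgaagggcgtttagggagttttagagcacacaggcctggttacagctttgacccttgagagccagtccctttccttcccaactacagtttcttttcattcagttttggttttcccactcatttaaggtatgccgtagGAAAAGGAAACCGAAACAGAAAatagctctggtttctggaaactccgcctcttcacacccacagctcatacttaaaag
Gbp2, chr3:142620413-142620662, plus strand: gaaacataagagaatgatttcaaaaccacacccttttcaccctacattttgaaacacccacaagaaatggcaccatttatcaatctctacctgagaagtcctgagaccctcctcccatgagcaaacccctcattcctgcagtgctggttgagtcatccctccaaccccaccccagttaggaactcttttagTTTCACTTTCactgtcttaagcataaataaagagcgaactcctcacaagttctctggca
Cxcl10, chr5:92348890-92349139, minus strand: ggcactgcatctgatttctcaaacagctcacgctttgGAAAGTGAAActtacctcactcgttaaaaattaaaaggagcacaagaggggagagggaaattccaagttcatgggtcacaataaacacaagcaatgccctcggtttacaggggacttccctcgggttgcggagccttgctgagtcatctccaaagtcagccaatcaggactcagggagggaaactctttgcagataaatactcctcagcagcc
Oas3, chr5:120777660-120777909, minus strand: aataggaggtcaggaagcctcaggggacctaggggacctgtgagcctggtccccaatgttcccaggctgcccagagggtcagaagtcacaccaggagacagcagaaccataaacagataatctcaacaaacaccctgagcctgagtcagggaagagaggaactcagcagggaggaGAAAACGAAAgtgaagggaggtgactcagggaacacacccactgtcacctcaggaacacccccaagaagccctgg
The match began 59 bases before the start in Gbp2 and 75 in Oas3, and the 3 of Isg15 began 78, 72 and 66 bases before it. In Cxcl10 it lay farther upstream, at 213 bases. Isg15 was at 4.19, 4.43, 3.91 and 6.06 CPM in BMDM-Nur77-KO and 7.56, 7.70, 7.50 and 6.54 CPM in BMDM-WT (log2 fold change -0.66 ± 0.18, edgeR adjusted p = 0.0154), and all 4 knockout libraries were below the wild-type libraries. The call of Isg15 was lost without BMDM-Nur77-KO replicate 1 or 3 (adjusted p = 0.0669 without replicate 3).

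**Figure D2:**
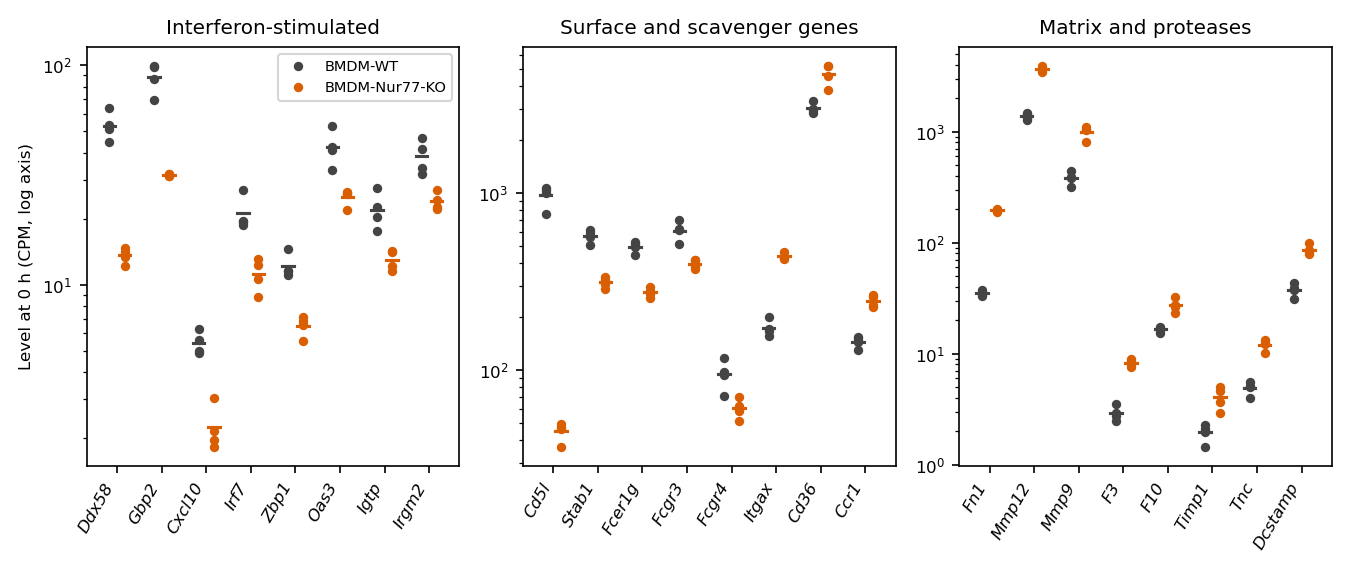
Each point is the level of a gene in 1 library at 0 h (CPM, log axis), grey for BMDM-WT and orange for BMDM-Nur77-KO, and the bar is the mean of the 4 libraries of a group. The 24 genes drawn were chosen among called genes whose groups do not overlap, and Fn1 and Cd5l show the widest gaps between the groups.

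The motif search was also made for AP-1 (TGANTCA) and the NBRE (AAAGGTCA), the monomer site of Nur77, on both strands. The AP-1 motif was in 5.04% of all windows (4.60% to 5.52%), in 24 of 195 windows of higher genes (12.3%, 8.41% to 17.7%) and in 22 of 209 of lower genes (10.5%, 7.06% to 15.4%), so both intervals lay above that of all windows. Of the 22 interferon-stimulated genes with a window, 7 held the AP-1 motif (31.8%, 16.4% to 52.7%). Gbp2, Cxcl10 and Oas3 were among them, and their AP-1 matches are not marked in the sequences above. The NBRE was rare, in 0.868% of all windows (0.695% to 1.08%), in 1 of 195 of higher genes and in 5 of 209 of lower genes (2.39%, 1.03% to 5.48%). The intervals of all windows and of the lower genes overlapped. Among the 5 were Trim30b and Gm15133, which lie in the Trim5 and Trim30 cluster described below. They had 14 and 12 counts over the BMDM-WT libraries and 0 over those of BMDM-Nur77-KO. These windows hold only proximal promoters.

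A second group of lower genes was set apart by position. The genome was divided into windows of 5 Mb, and the window from 170 to 175 Mb on chromosome 1 (mm10) held 28 called genes among 67 tested, 24 lower and 4 higher, or 41.8% beside 4.52% of the genes outside it. Of the 459 windows with at least 5 tested genes the next highest held 12 called genes, and the median was 1. By share a window on chromosome 8 (40 to 45 Mb) was alike, at 41.7%, with 5 called genes of 12 tested, and one on chromosome 1 (140 to 145 Mb) was at 37.5%, with 3 of 8. The window contains some of the Fc receptor genes, genes of the SLAM family and the Ifi200 family of interferon-inducible DNA-binding proteins. In the Ifi200 family 7 of 12 tested genes were lower and 2 higher, beside 2.38% and 2.37% of all genes tested. Ifi202b was at 128, 123, 123 and 108 CPM in BMDM-Nur77-KO and had no count in any BMDM-WT library, which is at least 580.4-fold higher against a floor of 3 counts per library. Ifi213 had 1 count over the 4 knockout libraries and 177 over the wild-type ones, 156-fold lower (27.7 to 6208, 95% counting interval). Ifi209 was at 11.4, 11.1, 12.3 and 12.4 CPM in BMDM-Nur77-KO and 49.9, 50.9, 58.0 and 35.0 CPM in BMDM-WT (-2.04 ± 0.23, edgeR adjusted p = 2.79e-07), and Ifi204 fell by 0.95 (edgeR adjusted p = 0.000494). Aim2, the inflammasome DNA sensor of the same family, was at 47.4 ± 3.39 CPM in BMDM-Nur77-KO and 33.8 ± 1.98 CPM in BMDM-WT (SD) and did not pass the test. Ifi200 genes are near-identical copies in part. Reads may have been lost to the filter on mapping quality or assigned to another copy, so these values are uncertain. Others in the window do not belong to the Ifi200 family. Sh2d1b1, an adaptor of SLAM receptors, was at 0.0911, 0.253, 0.614 and 0.319 CPM in BMDM-Nur77-KO and 4.12, 4.16, 4.09 and 4.94 CPM in BMDM-WT. Its neighbours Gm7694 and Nos1ap were also lower, at -3.27 and -3.48, and Slamf8 was -0.81 ± 0.10 (edgeR adjusted p = 1.71e-06). Kcnj10, a potassium channel gene, went the other way, from 1.17 to 6.58 CPM (edgeR adjusted p = 1.28e-07).

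The cluster of Trim5 and Trim30 genes on chromosome 7, which encode antiviral E3 ligases that are likewise near-identical, gave a similar picture. Of 10 tested members 6 were lower and 1 higher, beside 2.38% and 2.37% of all genes tested. Trim12a was at 0.547, 0.253, 0.153 and 0.159 CPM in BMDM-Nur77-KO and 12.7, 9.26, 9.69 and 8.57 CPM in BMDM-WT, and Trim30d at 1.91, 1.96, 1.61 and 1.43 CPM in BMDM-Nur77-KO and 21.2, 19.8, 21.6 and 15.9 CPM in BMDM-WT. Both were lower in every knockout library by a wide margin, with log2 fold changes of -5.17 and -3.49 (edgeR adjusted p = 2.8e-13 and 2.26e-14). Trim34a fell by 2.18 and Trim34b was higher by 1.51, while Trim30a was at 87.4 ± 8.47 CPM in BMDM-Nur77-KO and 91.1 ± 11.3 CPM in BMDM-WT (SD) with a log2 fold change of -0.06. Around Nr4a1 on chromosome 15, 10 of the 99 other genes tested within 10 Mb were called, 3 higher and 7 lower. This was 10.1%, beside 4.75% of all genes tested. All 10 called genes lay from -3.29 to 2.28 Mb of the start of Nr4a1, among the 90 tested within 5 Mb. The largest was Mettl7a3, a methyltransferase-like gene with close copies beside it, with 193 counts over the knockout libraries and 2 over the wild-type ones, 109-fold higher (29.8 to 909). Spats2 fell by 1.69 and Itgb7, an integrin subunit of gut-homing cells, by 1.13, and Ppp1r1a was higher by 1.04. Among 12 tested genes known to differ between inbred mouse strains, Ifi202b was the only one called, and Nnt, which is disrupted in one C57BL/6 substrain, was at 30.1 ± 3.08 CPM in BMDM-Nur77-KO and 29.3 ± 2.04 CPM in BMDM-WT (SD). The part of sequence differences linked to these loci was not tested.

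**Figure D3:**
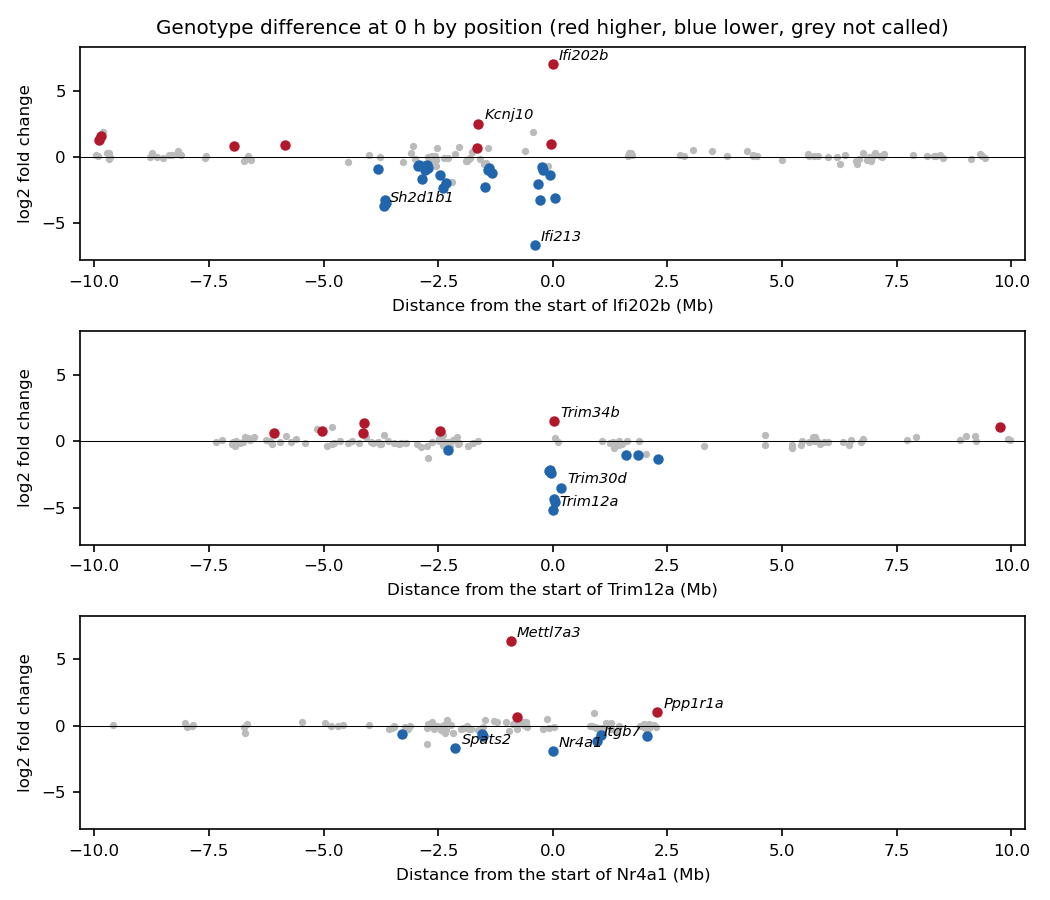
Each point is a tested gene by its distance in Mb from the start of Ifi202b on chromosome 1, Trim12a on chromosome 7 or Nr4a1 on chromosome 15, and its log2 fold change at 0 h, with values past 7 drawn at 7. Called genes (red higher, blue lower) lie close together on the left of Ifi202b and next to Trim12a, with both directions present. Around Nr4a1, 10 other called genes lie from -3.29 to 2.28 Mb.

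Fc receptors, which bind the constant part of antibodies and trigger uptake or cytokine release, were mostly lower. Of 7 genes tested 5 were lower (2.38% of all genes tested were) and none was higher, with a median of -0.63. Fcer1g, the signalling chain shared by the activating receptors, was at 254, 296, 268 and 279 CPM in BMDM-Nur77-KO and 448, 528, 495 and 513 CPM in BMDM-WT. The groups were far apart for their spread (log2 fold change -0.86 ± 0.07, edgeR adjusted p = 4.72e-10). The activating receptor genes Fcgr1, Fcgr3 and Fcgr4 fell by 0.66, 0.62 and 0.64, and Fcgrt, the neonatal receptor that recycles IgG, by 0.63. The inhibitory receptor gene Fcgr2b did not pass the test (-0.13 ± 0.11). Fcer1g, Fcgr3 and Fcgr4 lie in the chromosome 1 window described above, and Fcgr1 on chromosome 3 and Fcgrt on chromosome 7 do not. The count of 5 rested on fold changes close to the limit, since 3 were called without BMDM-Nur77-KO replicate 2 and 1 without BMDM-WT replicate 3, where Fcgrt had an adjusted p of 0.0826.

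Scavenger receptors changed in both directions. Cd5l, a secreted scavenger protein of tissue macrophages that is controlled by LXR, showed the largest fall among genes of high level, with 49.6, 36.8, 47.4 and 46.5 CPM in BMDM-Nur77-KO and 999, 763, 1067 and 1044 CPM in BMDM-WT. This was 21.5-fold lower, a log2 fold change of -4.43 ± 0.14 (edgeR adjusted p = 2.47e-20). Stab1, an endocytic receptor for modified lipoproteins and matrix fragments, and Siglec1, a sialic acid-binding receptor, fell by 0.86 and 0.63 (adjusted p = 0.0509 for Siglec1 without BMDM-Nur77-KO replicate 3). Cd36, the fatty acid and oxidised LDL receptor, was higher at 5214, 4579, 5188 and 3826 CPM in BMDM-Nur77-KO and 2991, 3295, 2839 and 2931 CPM in BMDM-WT. Every knockout library lay above every wild-type library, and the log2 fold change was 0.64 ± 0.13 (edgeR adjusted p = 0.000757), or 0.31 with a correction for GC content, under the limit. Olr1 and Marco were also higher, at levels of at most 3.51 CPM (1.13 and 1.22), and the call of Olr1 was lost without any one of 4 libraries, with an adjusted p of 0.167 without BMDM-Nur77-KO replicate 3. Msr1, Mrc1 and Lrp1 did not pass the test. In the list of LXR targets and lipid efflux genes Apoc2 and Pltp were lower (-1.02 and -0.70) among 17 tested, and Apoe fell by 0.55 (edgeR adjusted p = 0.00405), under the limit on the fold change. Among 23 cholesterol synthesis genes 1 was called, Hmgcs1, which was higher (0.63, and 0.57 without BMDM-Nur77-KO replicate 1).

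The list with the most higher genes was that of the extracellular matrix and its remodelling. Of 22 tested, 8 were higher (2.37% of all genes tested were) and 1 was lower, with a median of 0.32. Fn1, which encodes fibronectin, was at 201, 198, 188 and 195 CPM in BMDM-Nur77-KO and 33.0, 34.5, 37.2 and 35.5 CPM in BMDM-WT. It was 5.58-fold higher, with little spread among the knockout libraries (log2 fold change 2.48 ± 0.12, edgeR adjusted p = 1.55e-15). Mmp12, the macrophage elastase, was among the most abundant genes to change, at 3667, 3683, 3897 and 3433 CPM in BMDM-Nur77-KO and 1322, 1463, 1281 and 1434 CPM in BMDM-WT. Mmp9, gelatinase B, was at 803, 1042, 1047 and 1108 CPM in BMDM-Nur77-KO and 316, 379.8, 391 and 446 CPM in BMDM-WT. Both were above the wild-type range in all 4 knockout libraries, with log2 fold changes of 1.42 ± 0.14 (edgeR adjusted p = 1.3e-08) and 1.38 ± 0.16 (3.76e-07). F3, tissue factor, which starts coagulation, was 1.48 ± 0.14 (edgeR adjusted p = 1.23e-08), and F10, which encodes the factor it helps to activate, was 0.73 ± 0.09 (edgeR adjusted p = 1.82e-06). Timp1, an inhibitor of the metalloproteases, was higher too (1.05), at 4.05 ± 0.945 CPM in BMDM-Nur77-KO and 1.95 ± 0.355 CPM in BMDM-WT (SD). Spp1, osteopontin, was at 8749.7 and 5983 CPM and stayed under the limit on the fold change (0.55, edgeR adjusted p = 0.00409), and Plau and Adam8 did not pass the test.

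Of 8 osteoclast markers tested, 4 were higher (2.37% of all genes tested were). They were Mmp9, Dcstamp and Ocstamp, which encode proteins of cell fusion, and Atp6v0d2, a subunit of the proton pump. Dcstamp was at 86.4, 82.2, 79.1 and 98.8 CPM in BMDM-Nur77-KO and 37.6, 31.2, 38.9 and 43.3 CPM in BMDM-WT (1.20 ± 0.15, edgeR adjusted p = 8.43e-07). Atp6v0d2 was at 1240.3 ± 139 CPM in BMDM-Nur77-KO and 737 ± 21.5 CPM in BMDM-WT (SD) (0.75, edgeR adjusted p = 0.00868). Itgb3, an integrin subunit of osteoclasts, was at 34.9, 38.5, 41.4 and 37.3 CPM in BMDM-Nur77-KO and 26.4, 26.3, 23.6 and 26.2 CPM in BMDM-WT (0.57, edgeR adjusted p = 0.00457), just under the limit on the fold change and without overlap. Acp5, the tartrate-resistant phosphatase, was at 0.41 ± 0.30. Ctsk, the collagen-degrading cathepsin of osteoclasts, was lower by 0.48 (edgeR adjusted p = 0.0113, and 0.0667 without BMDM-WT replicate 3), under the limit on the fold change, and Nfatc1, its master regulator, was at -0.18 ± 0.12. The summed level of the list was 2348 to 2517 CPM in BMDM-Nur77-KO and 1178 to 1284 CPM in BMDM-WT. Most of it came from Mmp9, described with the matrix genes above, and Atp6v0d2. The osteoclast markers Calcr, without a count, and Oscar, with at most 1 count in any library, did not pass the filter. The part of osteoclast-like cells in the result was not tested. In these bulk libraries fewer cells of a type and less RNA per cell cannot be told apart.

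Itgax, which encodes the integrin CD11c, was at 435, 436, 424 and 466 CPM in BMDM-Nur77-KO and 171, 155, 165 and 200.2 CPM in BMDM-WT. The groups were separated by more than the range within either one (1.35 ± 0.10, edgeR adjusted p = 1.43e-11), and it was the only one of 14 integrin genes called higher. Itgb2, its partner chain, was 0.40 ± 0.07 (edgeR adjusted p = 0.000301), and Itgam, which encodes CD11b, was at 0.01. Of 12 monocyte subset genes 5 were higher (2.37% of all genes tested were) and none lower. By sign alone the list was split, with 6 genes above 0 and 6 below (median 0.31). Among the 5 higher genes were Klf4, a transcription factor of the monocyte lineage, Ccr2, Cd36 and Chil3, with log2 fold changes of 0.99, 0.84, 0.64 and 0.62. With a correction for GC content 2 of the 12 were called, and Chil3 lost its call without any one of 5 libraries (adjusted p = 0.157 without BMDM-Nur77-KO replicate 3). Siglecf, a marker of eosinophils that alveolar macrophages share, was 1.71 ± 0.16 (edgeR adjusted p = 4.83e-09), at 8.90 ± 0.924 CPM in BMDM-Nur77-KO and 2.72 ± 0.309 CPM in BMDM-WT (SD), and it was the only one of the 10 markers of mast cells, basophils and eosinophils to pass the filter. The neutrophil markers S100a8 and Ltf were higher by 0.70 and 0.62 at levels of at most 11.9 CPM. Neither call held when libraries were left out in turn, with adjusted p up to 0.0748 for S100a8 (without BMDM-Nur77-KO replicate 3) and 0.126 for Ltf (without BMDM-WT replicate 2), and the summed level of the 12 neutrophil markers overlapped between the genotypes, at 67.5 to 88.8 and 72.6 to 107 CPM. The largest part of the neutrophil sum was Csf3r, at 31.8 to 44.5 CPM in BMDM-Nur77-KO and 46.5 to 67.25 CPM in BMDM-WT. Of the 6 neutrophil markers tested, 4 had a log2 fold change above 0 and 2, Csf3r among them, below. The part of such cells in the monocyte genes was not tested.

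Chemokine receptors steer the migration of leukocytes, and the median of 14 such genes was 0.11. Of these, 3 were higher (2.37% of all genes tested were) and none was lower. Among them Ccr1, a receptor for inflammatory CC chemokines, was at 257, 233, 266 and 228 CPM in BMDM-Nur77-KO and 143, 130.2, 150.5 and 153 CPM in BMDM-WT. All knockout libraries were above the wild-type range (0.77 ± 0.10, edgeR adjusted p = 1.09e-06). Ccr2, the receptor for CCL2, was higher by 0.84 (edgeR adjusted p = 0.000773). With a correction for GC content none of the 14 passed both limits. Of 20 chemokine genes 4 were lower (2.38% of all genes tested were), Cxcl9, Cxcl10, Ccl12 and the platelet factor gene Pf4. Ccl22, a ligand of CCR4, was higher (0.87). Pf4 was at 50.4 ± 2.87 CPM in BMDM-Nur77-KO and 79.9 ± 6.09 CPM in BMDM-WT (SD) (-0.66 ± 0.10, edgeR adjusted p = 2.29e-05). The abundant chemokines Ccl6 and Ccl9 were at 2099.9 and 2081 CPM in BMDM-Nur77-KO with log2 fold changes of 0.46 and 0.17, under the limit, and Ccl2 did not pass the test (0.05 ± 0.13).

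Inflammatory cytokine genes were low at rest. Of the 16 listed, 6 had no count in any of the 8 libraries and 8 stayed under 1 CPM in all of them. Genes without a count at rest could pass the filter only through the libraries after LPS and have no value at rest. Of the 15 genes tested Il1a was higher (0.66 ± 0.20, edgeR adjusted p = 0.0279) and Il1b lower (-0.68 ± 0.21, edgeR adjusted p = 0.0319), both at most 5.09 CPM in any library. The groups overlapped for both genes, and each call was lost without any one of 5 libraries, with adjusted p up to 0.105 for Il1a (without BMDM-WT replicate 2) and 0.160 for Il1b (without BMDM-WT replicate 4). Tnf was at 30.8 ± 2.90 CPM in BMDM-Nur77-KO and 40.7 ± 3.90 CPM in BMDM-WT (SD) (-0.40, edgeR adjusted p = 0.0384, and 0.153 without BMDM-Nur77-KO replicate 1), under the limit on the fold change. Among 13 anti-inflammatory mediators 3 were lower (2.38% of all genes tested were). Zfp36, which encodes the RNA-decay factor tristetraprolin, was at 106, 96.6, 108 and 112 CPM in BMDM-Nur77-KO and 173, 153, 176 and 167 CPM in BMDM-WT, with non-overlapping groups (-0.66 ± 0.08, edgeR adjusted p = 6.33e-07). Gas6, the bridging ligand for uptake of dying cells by MERTK, fell by 0.61 (edgeR adjusted p = 0.000132), and Socs3, an inhibitor of cytokine receptor signalling, by 1.54 at levels of at most 1.31 CPM (adjusted p = 0.0878 without BMDM-Nur77-KO replicate 1). With a correction for GC content 1 of the 3 was called. Acod1, the enzyme that makes itaconate, was the only called gene among 22 of the TCA cycle list (-1.28 ± 0.21, edgeR adjusted p = 6.46e-05), at 2.46 ± 0.779 CPM in BMDM-Nur77-KO and 6.01 ± 0.971 CPM in BMDM-WT (SD). The alternative activation list held 6 higher and 2 lower genes of 16, beside 2.37% and 2.38% of all genes tested. Without BMDM-WT replicate 3, 1 was lower. The folate receptor gene Folr2 was higher at 199.6 ± 16.7 CPM in BMDM-Nur77-KO and 114 ± 11.3 CPM in BMDM-WT (SD) (0.81, edgeR adjusted p = 1.6e-08) and the transglutaminase Tgm2 lower at 45.2 ± 4.33 CPM in BMDM-Nur77-KO and 82.6 ± 15.8 CPM in BMDM-WT (SD) (-0.87, edgeR adjusted p = 6.84e-05).

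**Figure D4:**
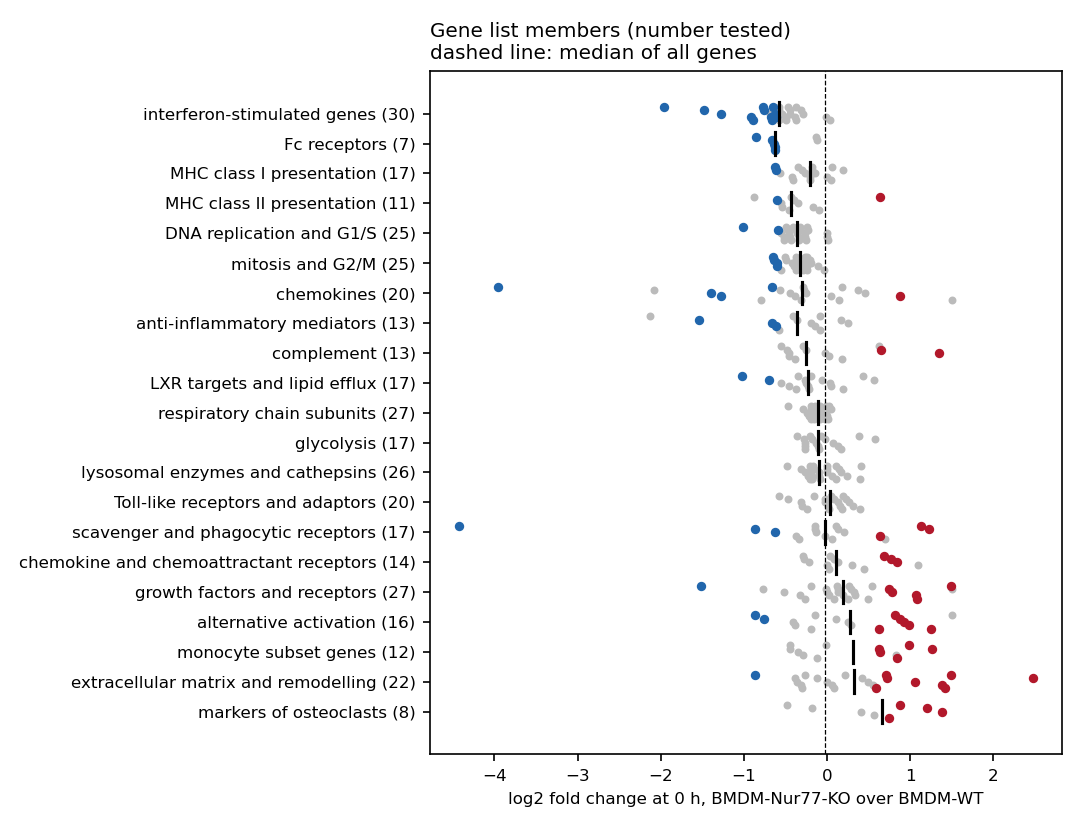
Each point is a tested member of a gene list by its log2 fold change at 0 h, red if called higher, blue if called lower and grey if not called, and the black bar is the median of the list. The interferon-stimulated genes and Fc receptors lie to the left of the median of all genes (dashed line), the osteoclast and matrix genes mostly to the right. The medians of the respiratory chain, glycolysis, lysosome and Toll-like receptor genes lie close to it.

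Of 25 immediate-early and AP-1 genes 4 were higher (2.37% of all genes tested were) and none lower. The list's median was -0.06, with 11 genes above 0 and 14 below. At the adjusted p alone, 6 were higher and 2 lower. The 4 called genes were not of the Jun, Fos, Maf or ATF subfamilies of AP-1. Bhlhe40, a repressor linked to cytokine output and proliferation of macrophages, was at 105, 100.3, 98.5 and 103 CPM in BMDM-Nur77-KO and 43.1, 50.9, 44.1 and 48.2 CPM in BMDM-WT. All knockout libraries were above the wild-type ones (1.13 ± 0.10, edgeR adjusted p = 1.04e-09). Klf4, Egr2 and Egr3 were higher by 0.99, 0.60 and 0.70 (edgeR adjusted p = 2.11e-06, 8.03e-06 and 0.00152), with Egr2 at 0.58, not past the limit, without BMDM-WT replicate 3. Atf3, a repressor of the AP-1 family, was 0.31 ± 0.07 (edgeR adjusted p = 0.0016), under the limit on the fold change, and Egr1 did not pass the test (-0.35). Among 27 growth factors and receptors 5 were higher (2.37% of all genes tested were) and 1 lower. Without BMDM-Nur77-KO replicate 3, 3 were higher. Hbegf, a ligand of the EGF receptor, was at 48.6 ± 4.74 CPM in BMDM-Nur77-KO and 28.3 ± 2.67 CPM in BMDM-WT (SD) (0.78, edgeR adjusted p = 2.78e-06), and the VEGF receptor gene Flt1 was at 20.7 ± 2.22 CPM in BMDM-Nur77-KO and 9.85 ± 1.49 CPM in BMDM-WT (SD) (1.07, edgeR adjusted p = 7.71e-06). Kdr, another VEGF receptor gene, was lower (-1.51) at levels of at most 1.60 CPM. Among 15 NRF2 targets Slc7a11, the cystine transporter, and Prdx1, a peroxidase, were higher. Prdx1 was at 4734, 4023, 4933 and 4358 CPM in BMDM-Nur77-KO and 2624, 2281, 2526 and 2789 CPM in BMDM-WT, without overlap (0.82 ± 0.11, edgeR adjusted p = 3.18e-06), while the NRF2 targets Hmox1 and Txnrd1 were at -0.08 and 0.22.

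Cell cycle genes were lower by small steps. Of 25 genes of DNA replication 2 were called lower (2.38% of all genes tested were). At an adjusted p under 0.05 alone, 15 were lower, where 6.35% of all genes were, and none was higher. The list's median was -0.36. The 2 calls became 1 without BMDM-Nur77-KO replicate 3 or BMDM-WT replicate 4. Tk1, thymidine kinase, was at 8.47, 7.98, 9.06 and 7.81 CPM in BMDM-Nur77-KO and 17.6, 18.1, 13.9 and 17.4 CPM in BMDM-WT, without overlap (-1.01 ± 0.20, edgeR adjusted p = 0.00067). Mcm6, a subunit of the replicative helicase, fell by 0.38 (edgeR adjusted p = 3.72e-05), and Pcna was at -0.00. Of 25 mitosis genes 4 were lower (2.38% of all genes tested were), with a median of -0.33 for the list. The 4 were Birc5, Cdc20, Plk1 and Aurkb, lower by 0.65, 0.64, 0.60 and 0.60. Left out 1 at a time, 4 of the 8 libraries brought the mitosis count to 2 (replicates 1 and 3 of BMDM-Nur77-KO and 2 and 4 of BMDM-WT). The call of Aurkb was lost without BMDM-Nur77-KO replicate 3 (adjusted p = 0.0513) and that of Cdc20 without any one of 5 libraries (0.0986 without BMDM-Nur77-KO replicate 1, where Plk1 fell by 0.50). Mki67 did not pass the test (-0.32 ± 0.20).

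Lists of basic metabolism and degradation are short, so a count of no called gene is near the share over all genes. None of 27 respiratory chain genes had an adjusted p under 0.05. At that limit 6.34% of all genes tested were higher and 6.35% lower. The list's median was -0.11, and 23 of the 27 were below 0, beside 6077 of all 11189 genes. For 5 of them every knockout library was below every wild-type library, beside 12.6% of all genes tested. Of 22 TCA cycle genes 4 were lower at the adjusted p alone, Acod1 among them. Of 17 glycolysis genes, 26 lysosomal genes, 21 genes of the ATF4 and ER stress response, 20 Toll-like receptor and adaptor genes and 14 purinergic genes, none was called, where 4.75% of all genes were. At the adjusted p alone, 2 glycolysis genes were higher, 1 lysosomal gene was higher and 3 were lower, 1 gene of the ATF4 list was higher and 3 were lower, 3 Toll-like receptor and adaptor genes were lower and 1 purinergic gene was higher. Ctsd and Ctsb, the most abundant cathepsin genes, were at -0.01 and -0.19, Pkm, pyruvate kinase, at -0.07 and Tlr13 at 0.20.

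Outside these lists, the largest higher genes by the rule for naming included Gfra2, a receptor for neurturin, and Tnfrsf10b, the mouse TRAIL receptor, which lie within 2 Mb of each other on chromosome 14. Gfra2 was at 31.7, 34.8, 28.3 and 28.7 CPM in BMDM-Nur77-KO and 2.90, 3.02, 1.82 and 2.54 CPM in BMDM-WT, and Tnfrsf10b at 17.5, 16.1, 19.3 and 18.1 CPM in BMDM-Nur77-KO and 2.44, 1.72, 1.67 and 4.14 CPM in BMDM-WT. Both were several-fold above the wild-type range in every knockout library (3.57 ± 0.18 and 2.85 ± 0.20, edgeR adjusted p = 5.3e-15 and 1.2e-11). On chromosome 4 the neighbours Tnfsf15 and Tnfsf8, ligands of the TNF family, and Tnc, the matrix protein tenascin C, were all higher, by 1.09, 1.25 and 1.29. On the X chromosome the neighbours Radx, Rnf128 and Tbc1d8b were higher by 1.18, 0.95 and 0.66, and the call of Tbc1d8b was lost without any one of 6 libraries (adjusted p = 0.166 without BMDM-Nur77-KO replicate 1).

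The genes called at 0 h were followed after LPS. Of the 265 higher genes, 117, 116 and 121 were also called higher at 1, 5 and 18 h, where 1.48%, 5.68% and 5.76% of all genes tested were, and 45 at all 3 times. Of the 266 lower genes, 92, 93 and 82 were also called lower, where 1.36%, 3.13% and 4.17% of all genes were, and 35 at all 3 times. Whether the libraries of different times came from the same mice is not given. The opposite call was made at 18 h for 4 of the 265 higher genes, among them Ccr2, and for 24 of the 266 lower genes. The genotype difference of 58 of the higher and 88 of the lower genes was itself different at 18 h from that at 0 h (adjusted p of the interaction under 0.05, 9.45% of all genes tested, beside 3.12% at 5 h and 0.0715% at 1 h). The 0 h libraries both chose these genes and enter the interaction.

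The main groups of genes are described over time in turn. Of the 12 interferon-stimulated genes lower at 0 h, Ddx58 was lower at all later times, by -1.91, -1.55 and -0.98 at 1, 5 and 18 h. Gbp2 and Cxcl10 were higher in BMDM-Nur77-KO at 18 h, by 0.91 and 1.01, after -0.32 and -0.49 at 1 h, and the difference from 0 h passed the interaction test at 5 and 18 h for both. After LPS the list's median, -0.58 at rest, was 0.00, -0.04 and 0.40 at the 3 successive times. Fn1, Mmp12, Mmp9 and F3 were called higher at all 4 times, Fn1 by 2.07, 1.87 and 1.81 after LPS. Itgax was also higher throughout, as was Siglecf, and Cd5l stayed lower by -4.27, -4.56 and -4.53. The chemokine receptor gene Ccr1 was at -0.33 at 18 h, and Prdx1 at -0.11. Il1b, lower at rest, was higher at 18 h by 1.30.

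**Figure D5:**
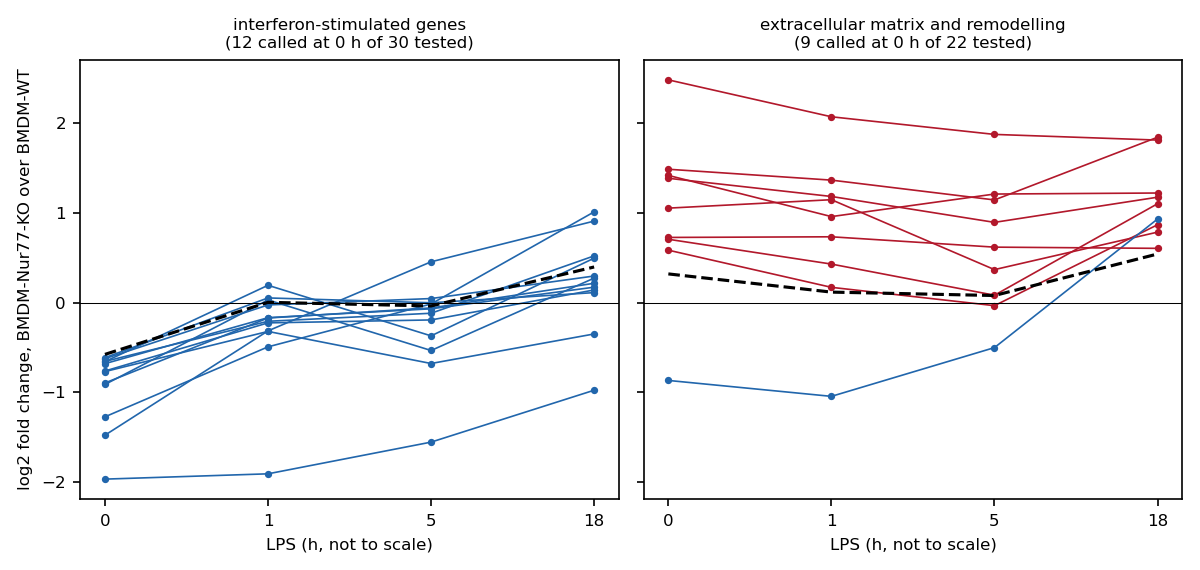
Each line is a gene called at 0 h, blue if lower and red if higher, by its log2 fold change between the genotypes at 0, 1, 5 and 18 h of LPS, and the dashed line is the median of all tested members of the list. The interferon-stimulated genes start below 0 and their median reaches 0.40 at 18 h, while the higher matrix genes stay at or above -0.03 at every time.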

How the data were processed

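RNA-seq was made from 32 BMDM libraries, 4 of each genotype at 0, 1, 5 and 18 h of LPS, and the 8 at 0 h are described here. The deposited values are estimated counts per RefSeq transcript, made by the authors with HISAT2 2.1.0 and CASAVA 1.8.2 (submitters' processing notes), the mm10 genome, a SAMtools filter on mapping quality over 15 and HOMER tag counting without normalization. Each mate adds 0.5, and 28.6% of values were not whole and were rounded. Use of the strand in counting is not given in the sources used here, so a gene and an overlapping antisense gene cannot be told apart.

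Of 42361 transcripts, 93 without a gene name (0.372% to 0.921% of the tags at 0 h) were left out, and the transcript with the highest mean count stood for each of 25067 genes. Genes whose mean RPKM exceeded 1 in any of the 8 groups were tested with edgeR 4.0.16 (limma 3.58.1, R 4.3.3), by a quasi-likelihood fit with TMM scaling over all 32 libraries and Benjamini-Hochberg adjustment over all genes tested. Calls needed an adjusted p under 0.05 with a log2 fold change past 0.58 in either direction, and the SE is that of the log2 fold change. Totals of 9271205 to 15214524 counts set the precision. Intervals and floors of 3 counts cover counting error only. DESeq2 1.42.0 was an alternative, beside other scalings, filters, fold limits, a replicate block, summed transcripts, a GC correction and leaving out each library. The scripts were tested on simulated data.

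Named genes were Nr4a1 to Nr4a3, the 12 largest changes each way among called genes with non-overlapping groups and at least 20 counts in the higher group, in each list up to 6 called and up to 3 other abundant genes, called genes within 10 Mb of Nr4a1 and runs of at least 3 neighbouring called genes. Adgre1, Isg15, Ddx3y and the genes of the closing section were named outside this rule. The members, lists and tests were chosen with earlier results of these data known. The ISRE motif and the count without the chromosome 1 window were added after seeing the data. Some genes covered by the rule are not reported here.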

Additional observations from a re-analysis of the deposited data

Results flagged for a closer look

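In 19 of the 278 groups of 4 libraries looked at, for the genes named above, 1 library lay far from the other 3. Chance does this in about 1 of 20 groups. BMDM-Nur77-KO replicate 4 had 50.5 CPM of Bst2, 69.2 CPM of Ccr2, 1645 CPM of Csf1r, 639.9 CPM of H2-K1, 557 CPM of Rgs2, 191 CPM of Rps3a1 and 43.8 CPM of Tap1, 7 of the 19 cases. BMDM-WT replicate 3 had 27.0 CPM of Irf7, 23.6 CPM of Itgb3, 0.530 CPM of Socs3, 13.9 CPM of Tk1 and 14.5 CPM of Zbp1. BMDM-WT replicate 2 had 2.29 CPM of Cxcl9, 59.8 CPM of Hmgcs1 and 242 CPM of Rnf128. BMDM-Nur77-KO replicate 3 had 2213 CPM of Ccl6. BMDM-Nur77-KO replicate 2 had 21.8 CPM of Oas3. BMDM-WT replicate 4 had 4.94 CPM of Sh2d1b1. BMDM-Nur77-KO replicate 1 had 26.4 CPM of Tnf.

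The genotype difference after LPS was tested against that at 0 h by an interaction term in the same edgeR fit, and 84 of 417 such tests of the named genes passed at an adjusted p under 0.05. The 0 h libraries both chose most of these genes and enter the test. Values are the log2 fold change between the genotypes at the later time minus that at 0 h. At 1 h the value was above 0 for 4 genes, 0.94 for Irf7, 0.78 for Cxcl10, 0.67 for Zfp36 and 0.65 for Stat2. At 5 h the value was above 0 for 14 genes, 5.08 for Cxcl9, 3.20 for Trim30d, 2.13 for Egr3, 1.93 for Gbp2, 1.26 for Cxcl10, 1.19 for Mki67, 1.17 for Ifi204, 1.15 for Acod1, 0.89 for Trim34a, 0.84 for Zbp1, 0.83 for Oasl2, 0.76 for Gm12250, 0.60 for Irgm2 and 0.57 for Oas3. At 5 h the value was below 0 for 9 genes, -1.06 for Klf4, -0.77 for Fcgr2b, -0.65 for Ccr1, -0.65 for Bhlhe40, -0.63 for Prdx1, -0.61 for Fn1, -0.59 for Apobec1, -0.52 for Slamf8 and -0.41 for Ccl9. At 18 h the value was above 0 for 40 genes, 5.07 for Cxcl9, 3.53 for Trim30d, 2.42 for Egr3, 2.38 for Gbp2, 2.28 for Cxcl10, 2.28 for Nr4a3, 1.98 for Il1b, 1.79 for Socs3, 1.78 for Acod1, 1.54 for Il1a, 1.49 for Hbegf, 1.48 for Ccl22, 1.44 for Kdr, 1.31 for Birc5, 1.30 for Klf4, 1.21 for Tgm2, 1.18 for Irf7, 1.17 for Igtp, 1.16 for Ifi209, 1.16 for Nr4a2, 1.15 for Isg15, 1.11 for Zbp1, 1.09 for Ifi204, 1.09 for Ifit2, 1.09 for Irgm2, 1.08 for Egr1, 1.07 for Rgs1, 1.04 for Tnf, 1.03 for Mki67, 0.99 for Ddx58, 0.98 for Gm12250, 0.92 for Tnfsf15, 0.90 for Oas3, 0.90 for H2-Ab1, 0.88 for Psmb9, 0.86 for Tap1, 0.85 for Oasl2, 0.69 for Zfp36, 0.66 for Stat2 and 0.54 for Trim30a. At 18 h the value was below 0 for 17 genes, -1.94 for Fcgr2b, -1.69 for Ccr2, -1.31 for Rnf128, -1.10 for Ccr1, -0.93 for Prdx1, -0.83 for Tlr13, -0.78 for Rgs2, -0.77 for Cd300ld, -0.69 for Itgb3, -0.69 for Hmgcs1, -0.67 for Ptprc, -0.67 for Fn1, -0.66 for Itgam, -0.55 for Pcna, -0.47 for Arhgap25, -0.42 for Itgb2 and -0.41 for Apobec1.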

How the results depend on the processing

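With DESeq2, DESeq2 size factors, 3 other filters on low values, the 0 h libraries alone, summed transcripts, a GC correction and without the 5 Mb window on chromosome 1, the higher genes numbered 238 to 321 (265 in the report) and the lower genes 234 to 307 (266). Leaving out 1 library at a time gave 220 to 317 higher and 209 to 355 lower genes. Of the genes also called at 1, 5 and 18 h, these left 106 to 111, 100 to 126 and 103 to 121 higher and 85 to 95, 76 to 106 and 71 to 92 lower. The limit on the fold change moved the counts most. Without it there were 709 higher and 710 lower genes, of which 262, 340 and 281 were also higher and 212, 295 and 225 also lower at 1, 5 and 18 h. With a limit of 1 there were 88 in each direction, of which 47, 35 and 43 were also higher and 42, 38 and 34 also lower. Of 112 named genes with an adjusted p under 0.05, 92 kept it in every alternative run. The difference of Ddx3y, 0.13, became -0.22 with the GC correction, and the cause was not tested. No scaling moved the median of all genes past 0.04 on the log2 scale. At these depths fold changes of genes with few counts are imprecise.

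The replicate numbers of the labels were not used as pairs in the main test. The deviations of the same number in both genotypes correlated at -0.000517, 0.285, -0.0799 and 0.306. BMDM-Nur77-KO replicates 2 and 4 were most like the BMDM-WT library of their own number, and replicates 1 and 3 were not. These 4 values are too few to decide whether the libraries were paired. With the replicate number as a block, fitted to the 0 h libraries alone, 330 genes were higher and 276 lower, beside 308 and 266 in those libraries without the block.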

Other observations

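Among the called genes that belong to no list and were not covered by the rule for naming, the 8 with the highest level were looked at after their values had been seen. Apobec1, the cytidine deaminase that edits the Apob transcript, was at 851, 821, 846 and 918 CPM in BMDM-Nur77-KO and 380.4, 325, 381 and 356 CPM in BMDM-WT. It was above the wild-type range in every knockout library (1.25 ± 0.06, edgeR adjusted p = 3.81e-15). Plxnd1, a semaphorin receptor, was at 474 ± 32.3 CPM in BMDM-Nur77-KO and 236 ± 14.7 CPM in BMDM-WT (SD) (1.01 ± 0.12, edgeR adjusted p = 3.4e-07). Ptprc, which encodes the leukocyte phosphatase CD45, was higher by 0.65 (edgeR adjusted p = 0.00331), and Cd300ld, an activating receptor of myeloid cells, by 0.66 (edgeR adjusted p = 5.91e-05, and 0.57 without BMDM-WT replicate 2). The regulators of G protein signalling Rgs1 and Rgs2, neighbours on chromosome 1, were higher by 0.68 and 0.63 (edgeR adjusted p = 0.0211 and 5.18e-06), where the call of Rgs1 was lost without any one of 6 libraries (adjusted p = 0.0753 without BMDM-WT replicate 4), and Arhgap25, a GTPase-activating protein for Rac, by 0.59 (edgeR adjusted p = 6.34e-07, and 0.55 without BMDM-WT replicate 2). The ribosomal protein gene Rps3a1, the only lower one of the 8, was at 168, 169, 172 and 191 CPM in BMDM-Nur77-KO and 521, 440.4, 565 and 546 CPM in BMDM-WT. Its groups did not overlap (-1.57 ± 0.10, edgeR adjusted p = 2.96e-12), but ribosomal protein genes have many near-identical pseudogene copies, so this value is uncertain.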
